A study of Mus musculus with 3 samples.

Results

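The iron uptake, storage and export genes examined here are 10 genes of cellular iron handling: Tfrc, Trf, Steap3, Slc11a2, Slc39a14, Fth1, Ftl1, Slc40a1, Ireb2 and Erfe. They were taken as all non-control probes whose gene name on the array is one of these symbols, Erfe being printed there under its older name Fam132b. This gave 16 probes of 41174 on the array, and 10 genes of 19862. The samples were mPTECs, an abbreviation the labels leave unexpanded, from kidneys of male mice aged 1 month. One sample was taken straight after isolation (day 0), 1 after a day on culture dishes (day 1) and 1 after 3 days (day 3). The cultured cells were kept in DMEM/F12 with insulin-transferrin-selenium, so that transferrin was supplied from outside, and with non-essential amino acids, 0.1 µM hydrocortisone and 1% serum. Genotype, strain and the number of mice behind a sample are not given in the sources used here. The comparison addresses how expression changed over time ex vivo. With 1 array per day there is no replicate, no error between samples and no test, and every ratio below compares 2 arrays, 1 for each day.

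Cells take up most of their iron bound to transferrin, which is carried in through the transferrin receptor. The iron is then reduced and moved across the endosome membrane, stored inside ferritin shells built of heavy and light chains, or exported by ferroportin. Iron regulatory proteins bind stem-loops in the mRNAs of several of these genes and so couple their translation or stability to the iron in the cell. In the kidney the proximal tubule takes filtered iron and transferrin back from the urine.

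Values are given as levels, the processed signal of a probe divided by the 75th percentile of its array, abbreviated P75. Differences are read only between days for the same probe. Levels of different probes are summed for marker lists, and pick the brightest probe to stand for a gene. That percentile was an intensity of 1184, 1509 and 1515 on days 0, 1 and 3, and 18744, 18612 and 18871 genes were well above background. All 3 arrays lay on 1 slide. The day 0 array held the proximal tubule markers: all 14 were well above background, with Slc34a1, a phosphate transporter of that segment, at a level of 111 P75. Loop of Henle markers were also high there, and their summed level was 576, 108 and 21.1 P75 on days 0, 1 and 3. On both day 1 and day 3, each of the 14 proximal tubule markers stood 2-fold or more below day 0, beside 15.3% and 21.8% of all genes. The summed level of these 14 markers was 1208, 196 and 22.4 P75 in day order. Fewer cells of a type and less RNA per cell cannot be told apart in such samples.

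Of the 9 members with a ratio, 2 were at least 2-fold higher on day 1 than on day 0, Tfrc and Slc39a14. Of all 18895 genes compared, 13.5% were. One member, Trf, was at least 2-fold lower on day 1, against 15.3% of all genes, and the other 6 lay within 2-fold. On day 3 against day 0, 3 of 10 members were at least 2-fold higher, namely Tfrc, Slc39a14 and Erfe, beside 16.6% of 18998 genes, and 1 was at least 2-fold lower, again Trf, beside 21.8%. Both comparisons share the day 0 array. Between day 3 and day 1, Erfe was the 1 member at least 2-fold higher, beside 6.99% of 18920 genes, and no member was at least 2-fold lower, beside 8.25%. The members' median log2 ratio was 0.04, -0.05 and -0.20 in the comparisons of day 1 with day 0, day 3 with day 0 and day 3 with day 1, and that of all genes was -0.11, -0.11 and -0.04. With so few genes, counts this close to the background are no result about the list, and the members went different ways. At 4-fold, no member differed between day 1 and day 0, where 3.38% of all genes were higher and 5.15% lower. On day 3 Erfe was at least 4-fold higher than on day 0, as were 5.35% of genes, and than on day 1, as were 1.62%.

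**Figure D1:**
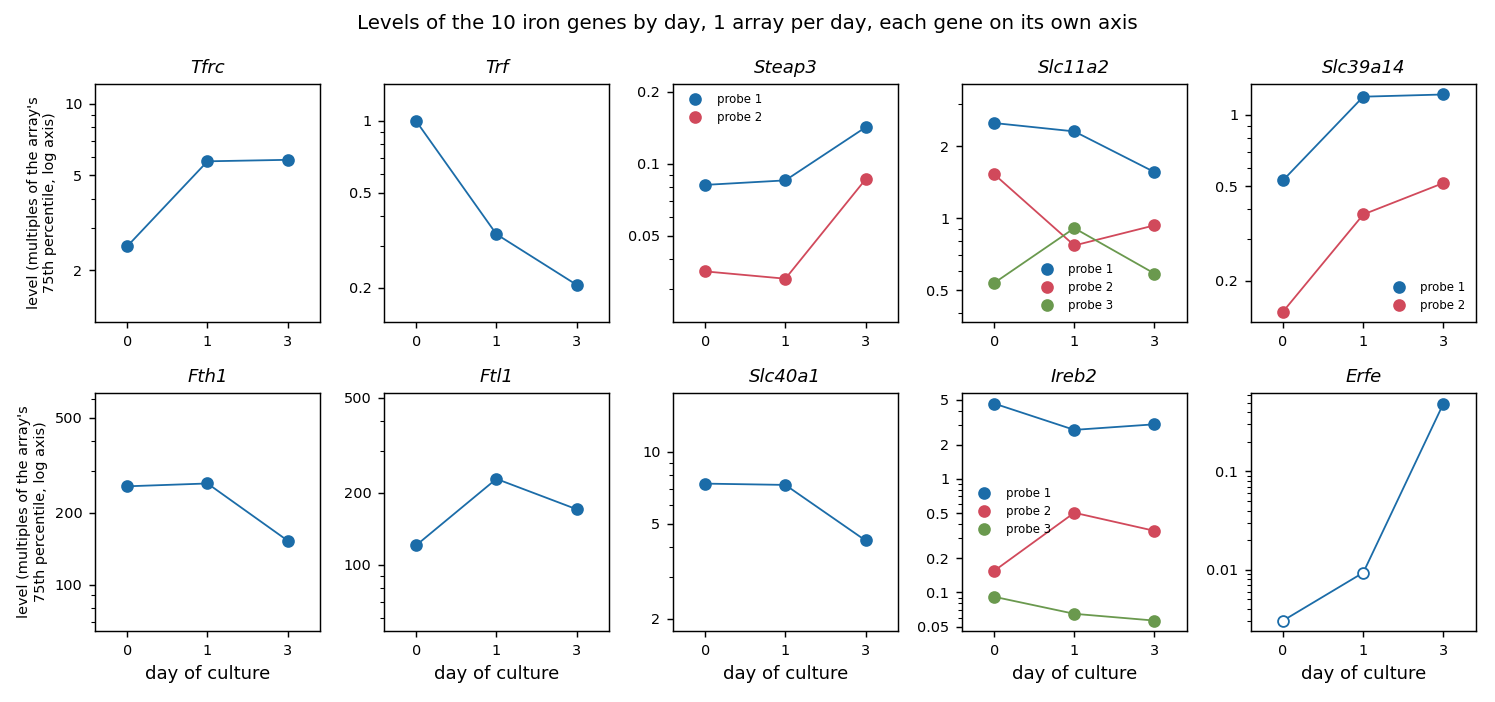
Level of every probe of the 10 genes on days 0, 1 and 3, in multiples of the 75th percentile of the array, on a log axis that differs between panels; filled points were well above background and open points were not. Erfe has open points on days 0 and 1 and a level of 0.490 on day 3, Trf is lower on each later day, and the probes of Slc11a2 and of Ireb2 run different ways.

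Transferrin receptor 1, encoded by Tfrc, is the cell surface receptor that brings in iron-loaded transferrin. Its 1 probe lies at chr16:32632255-32632314 on the plus strand (mm9, as the array files give it), and it was printed in 10 spots on each array, of which 9 were kept. The first 30 bases of the 60-base probe are shown because this is the member measured most often on each array.
Tfrc probe: tgagcaagatcacattaacaaagactagtt
The kept spots of Tfrc ran between levels of 2.29 and 2.75 P75 on day 0, between 5.16 and 6.47 P75 on day 1, and between 5.53 and 6.02 P75 on day 3. The spots of day 1 and of day 3 were all above those of day 0, and the spots of days 3 and 1 overlapped. The mean level of Tfrc was 2.53, 5.73 and 5.82 P75 in day order. The log2 ratio was 1.18 on day 1 and 1.20 on day 3 against day 0, and 0.02 on day 3 against day 1. The standard deviation of the log2 level between Tfrc spots was 0.10, 0.11 and 0.05 on days 0, 1 and 3, an error of the array alone that says nothing of the spread between animals or cultures. The ratio of Tfrc depended on the scaling: with 12 reference genes held level it was 0.67 on day 1 and 0.70 on day 3, under 2-fold.

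**Figure D2:**
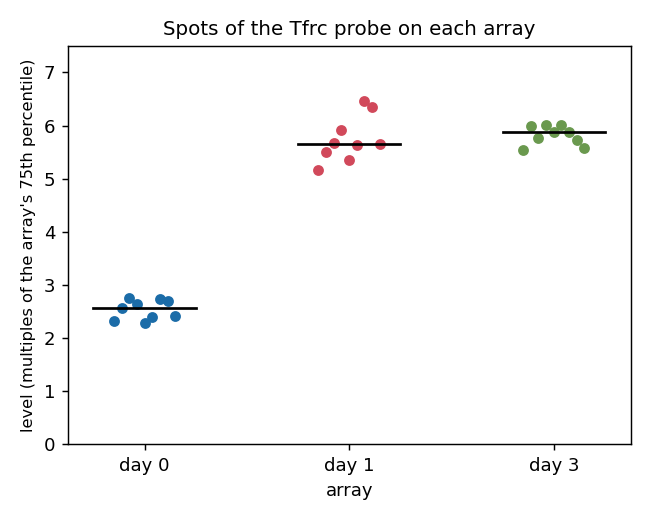
Level of each kept spot of the Tfrc probe by day, 1 array a day, in multiples of the 75th percentile of the array, with the median as a line. The 9 spots of day 0 lie at or below 2.75, and those of day 1 and day 3 at or above 5.16.

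Trf encodes transferrin itself, the plasma protein that carries ferric iron and that the liver makes in quantity. Its level was 0.995, 0.335 and 0.205 P75 on days 0, 1 and 3. Trf was thus 2.97-fold lower on day 1 and 4.84-fold lower on day 3 than on day 0, log2 ratios of -1.57 and -2.28. It was the 1 member at least 4-fold lower on day 3, where 8% of all genes were. The hepatocyte markers were lower too: 4 of the 5 measured were at least 2-fold lower on both days, beside 15.3% and 21.8% of all genes. Their summed level was 3.75, 0.699 and 0.225 P75 in day order. Most markers of the proximal tubule, loop of Henle, distal tubule, podocytes and erythroid cells were also that far lower on both days. Most macrophage and all fibroblast markers were not. Albumin (Alb) had levels of 1.43, 0.283 and 0.0609 P75. The part of the hepatocyte, proximal tubule or other markers in the ratio of Trf was not tested. The Trf probe spans chr9:103117569-103118184 on the minus strand.

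Steap3 is the ferrireductase that reduces iron in the endosomes of red cell precursors. Both of its probes were dim but well above background on all arrays. Probe 1, at chr1:122123825-122123884, had levels of 0.0815, 0.0851 and 0.142 P75 on days 0, 1 and 3. Probe 2, which the array files do not place on the genome, had levels of 0.0354, 0.0330 and 0.0859 P75. On day 3 both probes were higher than on either earlier day, with log2 ratios against day 0 of 0.80 for probe 1 and 1.28 for probe 2. Between day 1 and day 0 the log2 ratios were 0.06 and -0.10, smaller than the median spread of 0.34 between probes of a gene in that comparison.

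Slc11a2 encodes DMT1, the transporter that moves ferrous iron across the apical membrane of gut cells and out of endosomes. Its transcripts end in different ways, with or without an iron-responsive stem-loop, and its 3 probes lie apart on the minus strand of chromosome 15. The sequences are shown because the probes differ in direction and each reports its own stretch of transcript; for probes 1 and 2 the first 30 of 60 bases are given.
Slc11a2 probe 1, chr15:100218333-100218392: tgctttaatcccaaccagaaataatcatcc
Slc11a2 probe 2, chr15:100223347-100223406: tgttccctattcacttgattgtcactgaaa
Slc11a2 probe 3, chr15:100240516-100240575: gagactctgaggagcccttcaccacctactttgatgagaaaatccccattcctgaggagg
Probe 1, the brightest, had levels of 2.51, 2.31 and 1.56 P75 on days 0, 1 and 3, log2 ratios against day 0 of -0.12 on day 1 and -0.68 on day 3. Probe 2 had levels of 1.53, 0.770 and 0.934 P75, with log2 ratios of -0.99 and -0.71. Probe 3 had levels of 0.536, 0.910 and 0.587 P75, with log2 ratios of 0.76 and 0.13. On day 1 the probes thus spread from lower to higher than on day 0, and on day 3 probes 1 and 2 were lower while probe 3 lay near its day 0 level. No probe of Slc11a2 reached a 2-fold difference in these comparisons.

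Slc39a14 encodes ZIP14, which imports iron not bound to transferrin, and zinc and manganese. Both probes were higher on days 1 and 3 than on day 0. Probe 1, at chr14:70703405-70703464, had levels of 0.531, 1.19 and 1.22 P75 in day order, and log2 ratios of 1.17 on day 1 and 1.20 on day 3 against day 0. Probe 2, at chr14:70706300-70706359, had levels of 0.148, 0.381 and 0.517 P75, and log2 ratios of 1.36 and 1.80. Slc39a14 was the 1 member with more than 1 probe whose probes were all at least 2-fold apart from day 0 in the same direction on both days. With the reference genes held level the log2 ratios of probe 1 were 0.66 and 0.70, under 2-fold. Day 3 and day 1 differed by 0.03 for probe 1 and 0.44 for probe 2.

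**Figure D3:**
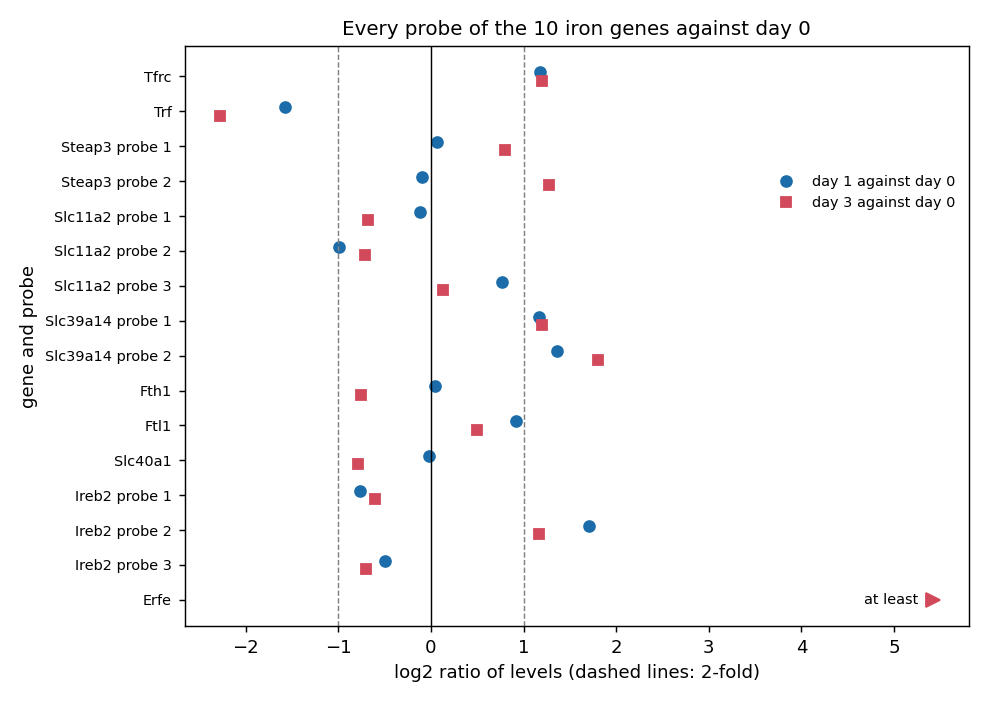
Log2 ratio of the level on day 1 (circles) and day 3 (squares) against day 0 for every probe of the 10 genes, with dashed lines at 2-fold. The arrow for Erfe, at 5.42 on day 3, is a bound against the lowest level well above background on day 0. It is not a strict minimum, and Erfe has no day 1 ratio. Tfrc and both Slc39a14 probes lie beyond 2-fold higher, Trf beyond 2-fold lower, and the Ireb2 probes lie on both sides of 0.

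Fth1 and Ftl1 encode the heavy and light chains of ferritin, the iron storage shell, the heavy chain being the one that oxidises iron. Their 2 probes ran differently. Fth1 (chr19:10059485-10059544) had levels of 258, 265 and 153 P75 on days 0, 1 and 3, so that day 3 stood below both other days, with log2 ratios of -0.76 against day 0 and -0.80 against day 1. Ftl1 had levels of 121, 229 and 171 P75, with day 1 above day 3 and both above day 0, at log2 ratios against day 0 of 0.92 on day 1 and 0.50 on day 3. Neither gene reached 2-fold, and neither spot was flagged as saturated.

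The Ftl1 probe, at chr7:52714977-52715036 on the minus strand, lies over the start of the coding sequence. Its last 30 bases are shown for that reason, with the start codon in capitals.
Ftl1 probe: cagccATGacctctcagattcgtcagaatt
The ferritin genes have near-identical copies elsewhere in the genome, so signal of such a copy cannot be told apart from that of the gene. A probe named for one of them, Ftl2-ps, looked up after the values of the members were known, had levels of 116, 210 and 201 P75, at log2 ratios of 0.86 on day 1 and 0.79 on day 3 against day 0. The day 3 values of both ferritins also moved with the image processing. Feature Extraction applied a multiplicative trend correction on 2 of the 3 arrays and not on that of day 3. In the signal before this correction the log2 ratio of day 3 against day 1 was -0.36 for Fth1 and 0.01 for Ftl1, where the corrected signal gave -0.80 and -0.42. Against day 0 the uncorrected ratios on day 3 were -0.40 for Fth1 and 0.93 for Ftl1, so that Ftl1 on day 3 was then level with Ftl1 on day 1.

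Slc40a1 encodes ferroportin, the exporter through which iron leaves cells. Its 1 probe, at chr1:45965255-45965314 on the minus strand, had levels of 7.36, 7.27 and 4.25 P75 on days 0, 1 and 3. It had 1 spot per array, so no spread between its spots is known. Day 1 against day 0 gave a log2 ratio of -0.02, and between -0.53 and 0.19 over the alternatives tried. Day 3 was lower, with log2 ratios of -0.79 against day 0 and -0.77 against day 1, both within 2-fold. The ratio of day 3 against day 0 was negative under every scaling tried, between -1.29 with reference genes held level and -0.31 with the spike-in controls held level. The endothelial markers were lower too: 5 of 6 stood 2-fold or more below day 0 on day 3, beside 21.8% of all genes. Their summed level was 23.2, 12.6 and 5.37 P75. This was not particular to them. All proximal tubule, intercalated cell and podocyte markers, and most loop of Henle, distal, erythroid and hepatocyte markers, were also that far lower on day 3. Most macrophage markers and all fibroblast markers were not. The macrophage markers, whose cells recycle iron through ferroportin, had summed levels of 1.80, 3.38 and 2.12 P75. Of the 10, 8 lay within 2-fold of day 0 on each day, Mrc1 was lower on both days, and Cd68 had levels of 0.162, 1.98 and 0.822 P75. Without Cd68 the sums were 1.64, 1.41 and 1.30 P75. The part of any of these marker lists in the ratio of Slc40a1 was not tested.

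Ireb2 encodes iron regulatory protein 2, which binds the stem-loops of the Tfrc and ferritin mRNAs when iron is scarce. Its 3 probes, all on the plus strand of chromosome 9, did not give 1 direction. They are printed so that the stretch behind each value can be seen, with 30 of 60 bases for probe 1.
Ireb2 probe 1, chr9:54759984-54760043: gagaagatgctaaggtactggacaatgata
Ireb2 probe 2, chr9:54756566-54756625: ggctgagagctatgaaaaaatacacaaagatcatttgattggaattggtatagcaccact
Ireb2 probe 3, chr9:54731840-54731899: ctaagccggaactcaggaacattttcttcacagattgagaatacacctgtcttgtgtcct
Probe 1 had levels of 4.61, 2.70 and 3.03 P75 on days 0, 1 and 3, with log2 ratios against day 0 of -0.77 and -0.61. Probe 2 had levels of 0.155, 0.503 and 0.349 P75, with log2 ratios of 1.70 and 1.17. Probe 3 had levels of 0.0916, 0.0648 and 0.0565 P75, with log2 ratios of -0.50 and -0.70. Probes 1 and 3 were lower on both later days than on day 0 and probe 2 was higher. The mean over the 3 probes gave 0.14 on day 1 and -0.04 on day 3, and no direction is given for Ireb2.

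Erfe encodes erythroferrone, a hormone that red cell precursors release in mice and that lowers hepcidin in the liver. It was the member with the largest ratio. Its 1 probe, at chr1:93270468-93270527 on the plus strand, had levels of 0.00304, 0.00935 and 0.490 P75 on days 0, 1 and 3. The probe was not well above background on days 0 and 1, so no fold is given between these days. On day 3 it was well above background. The first 30 of its 60 bases are shown, since the result rests on this probe and on 1 spot per array.
Erfe probe: tgtgtcatattgctaggcagaatatattta
Set against the lowest level well above background on the other array, Erfe was 42.8-fold higher on day 3 than on day 0. Against day 1 it was 46.1-fold higher. These are bounds by that convention and not strict minima. On days 0 and 1 some probes brighter than that lowest level were not called well above background. Of all genes, 91 of 18998 (0.479%) were at least as far higher than on day 0, and 7 of 18920 (0.037%) at least as far higher than on day 1. These are descriptions of 3 arrays, and no second probe of Erfe was on the array. On the log2 scale the bounds were 5.42 against day 0 and 5.53 against day 1. With normexp background correction they were lower, at 3.18 and 3.33. That setting starts from the signal before the software's background subtraction and trend correction, estimates the background anew and adds an offset of 50. Which of these lowered the bounds was not tested.

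All 8 erythroid markers measured were well above background on each array. Their summed level, on day 0 mostly that of Hba-a1, was 9.47, 1.65 and 1.01 P75 on days 0, 1 and 3. On day 3, 6 of 8 were at least 2-fold lower than on day 0, beside 21.8% of all genes. On day 3 against day 1, 0 were at least 2-fold higher and 3 lower, beside 6.99% and 8.25% of all genes. The markers' median log2 ratio was -0.04. Klf1 had the highest of these ratios, at 0.99. The part of these markers in the ratio of Erfe was not tested. Alpha globin (Hba-a1) had levels of 7.08, 0.930 and 0.163 P75. The erythropoietin receptor, Epor, through which Erfe is switched on in mouse erythroblasts, had levels of 0.843, 0.241 and 0.383 P75. Hepcidin (Hamp), the iron hormone that closes ferroportin, stayed dim, with levels of 0.0303, 0.0255 and 0.0325 P75 and log2 ratios of -0.25 on day 1 and 0.10 on day 3 against day 0.

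The other genes of iron handling were taken from a list of 80, of which 78 gave a value (Hephl1 and Isca2 did not). On day 1 against day 0, 12 were at least 2-fold higher and 13 as far lower, and on day 3 against day 0, 12 were higher and 17 lower. As shares of the 78 these were 15.4% and 16.7% on day 1, beside 13.5% and 15.3% of all genes, and 15.4% and 21.8% on day 3, beside 16.6% and 21.8%, so that the list lay near the background. The median log2 ratio was -0.35 on day 1 and -0.23 on day 3, beside -0.11 on each day over all genes. On day 3 against day 1, 5 were higher and 6 lower by that measure. These were 6.41% and 7.69%, beside 6.99% and 8.25% of all genes, again near the background. The median was -0.07, beside -0.04 over all genes. The same shares of all genes are the background for each group below, and with 9 to 20 genes a group none of the group counts is read as a result about its group. The 22 genes named next were taken by their role or because they were at least 4-fold apart from day 0, unless said otherwise.

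Among 18 further uptake genes, 4 were at least 2-fold higher and 4 lower on day 1 than on day 0, and 4 were higher and 6 lower on day 3. These are 22.2% on day 1 in each direction, beside 13.5% and 15.3% of all genes, and 22.2% and 33.3% on day 3, beside 16.6% and 21.8%. Lrp2 and Cubn, which encode megalin and cubilin, the apical receptors that retrieve filtered transferrin and other proteins, had the largest ratios below 0. Lrp2 had levels of 136, 7.32 and 3.21 P75 on days 0, 1 and 3, and was 18.5-fold lower on day 1 and 42.3-fold lower on day 3 than on day 0. Its other 3 probes were lower by less, at log2 ratios between -1.84 and -2.94 on day 1 and between -2.68 and -3.81 on day 3, where the brightest probe gave -4.21 and -5.40. The mean of all 4 probes was -2.82 and -3.77. Cubn had levels of 43.4, 2.91 and 1.74 P75, 14.9-fold and 24.9-fold lower. Both genes also stand in the proximal tubule marker list, so they are the same measurement as in that list.

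Transferrin receptor 2 (Tfr2), which senses loaded transferrin, had levels of 0.125, 0.0437 and 0.0218 P75 and was 5.72-fold lower on day 3 than on day 0. It thus ran opposite to Tfrc on both days, at log2 ratios of -1.52 and -2.52. Tfr2 had 1 probe, dim but well above background on each array. Over the alternatives tried, its log2 ratio lay between -2.02 and -1.06 on day 1 and between -3.01 and -1.59 on day 3. Its direction was kept, but whether it passed 4-fold on day 3 depended on the setting. Slc39a8, a metal importer related to Slc39a14, had levels of 1.31, 0.307 and 0.322 P75, at log2 ratios of -2.09 and -2.02. Its probe 2 gave -1.59 and -1.61, and its probe 3, not well above background on day 1, gave -0.46 on day 3. This pair of related importers ran opposite ways.

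The uptake genes on the high side on both days were Lcn2, Timd2 and Steap1. The fourth, named after the values were seen, was Slc11a1 on day 1 and Meltf on day 3. Lcn2 encodes lipocalin 2, a carrier of iron-binding siderophores that injured tubules release, and had levels of 0.0936, 2.37 and 4.60 P75, 25.3-fold higher on day 1 and 49.1-fold higher on day 3 than on day 0. Timd2, in mice a receptor for heavy chain ferritin, had levels of 0.644, 8.28 and 5.17 P75, at log2 ratios of 3.68 and 3.01, and its second probe was higher by 5.47 and 4.85 on the log2 scale. Steap1, of the same family as Steap3, had levels of 5.77, 31.2 and 27.0 P75, with both probes higher on both days.

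Cybrd1 and Ltf gave probes that disagreed. Cybrd1, a ferric reductase of the apical gut membrane, had log2 ratios on day 3 against day 0 of -1.22 for its brightest probe, and of 0.84 and -0.27 for its other probes. Ltf, which encodes lactoferrin, had a log2 ratio of -2.39 for its brightest probe on day 3 and of 0.44 for the other. No direction is given for either.

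Among 9 further genes of storage and export with a value, 1 was lower on day 1 than on day 0, and 2 were higher and 2 lower on day 3. The shares on day 1 were 0% and 11.1%, beside 13.5% and 15.3% of all genes, and on day 3 22.2% in each direction, beside 16.6% and 21.8%. The ferroxidases that load exported iron onto transferrin ran apart. Ceruloplasmin (Cp) had levels of 0.809, 0.584 and 1.85 P75 on days 0, 1 and 3, and hephaestin (Heph) of 1.02, 0.511 and 0.470 P75. On day 3 against day 0 their log2 ratios were 1.19 and -1.12. Ncoa4, the receptor that delivers ferritin for breakdown, had levels of 12.2, 6.79 and 4.58 P75, at log2 ratios of -0.84 and -1.41, and all 3 of its probes were lower on both days. Pcbp1, a chaperone that brings iron to ferritin, had levels of 31.2, 53.4 and 47.8 P75, within 2-fold of day 0. Haptoglobin (Hp), which binds free haemoglobin, had levels of 0.130, 0.0656 and 1.27 P75, and so was like Erfe higher on day 3 than on both earlier days, by 9.76-fold over day 0.

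Of 12 further regulators, none was at least 2-fold higher on day 1 and 1, Smad7, was lower, while none passed 2-fold in either direction on day 3. Of all genes 13.5% were higher and 15.3% lower on day 1, and 16.6% and 21.8% on day 3. Smad7, an inhibitor of BMP signalling to hepcidin, was picked out after its values were seen. Aco1, the enzyme that without its iron-sulfur cluster acts as iron regulatory protein 1, had levels of 22.7, 13.5 and 12.8 P75 on days 0, 1 and 3, at log2 ratios of -0.74 and -0.83. Its second probe was lower as well. Fbxl5, which marks iron regulatory protein 2 for destruction when iron is plentiful, had log2 ratios on day 3 between -0.63 and 0.78 over its 4 probes, and no direction is given.

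**Figure D4:**
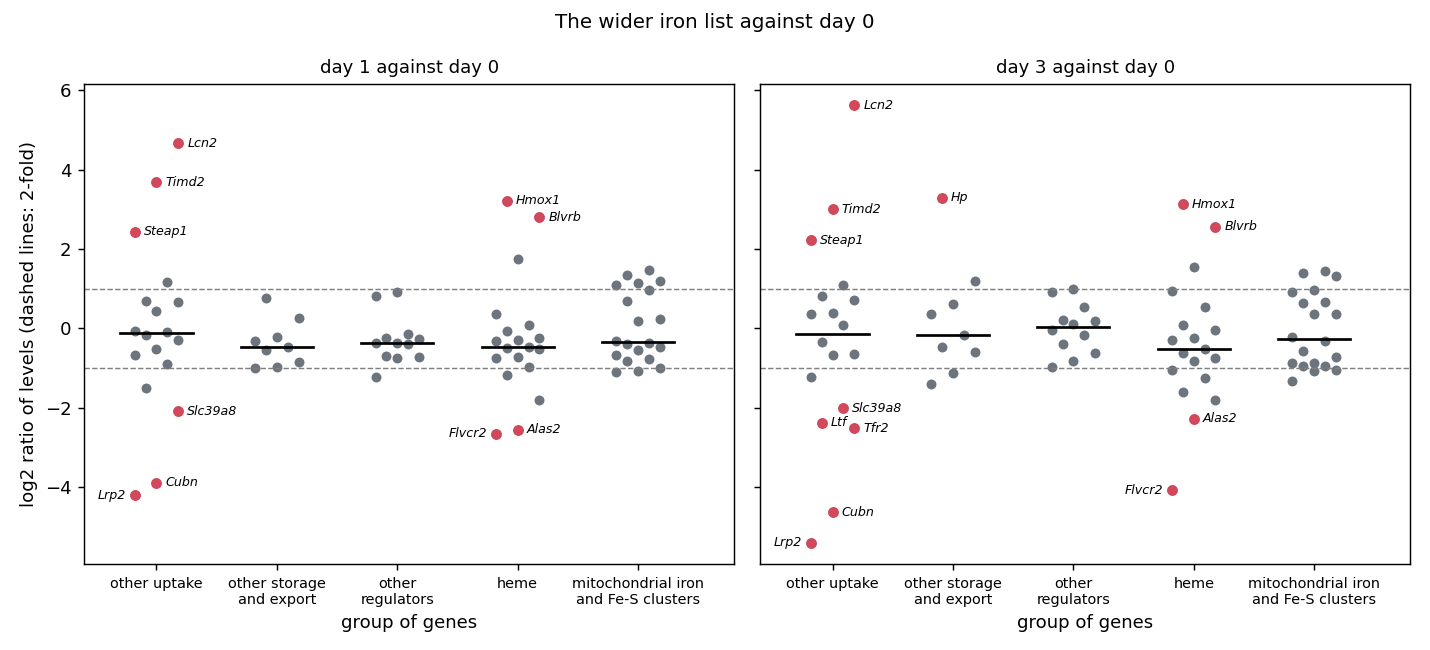
Log2 ratio of each gene of the wider iron list on day 1 (left) and day 3 (right) against day 0, by group, with the group median as a bar and dashed lines at 2-fold; genes at least 4-fold apart from day 0 are named in red. Lcn2, Timd2, Steap1, Hmox1 and Blvrb stand above and Lrp2, Cubn, Flvcr2, Slc39a8 and Alas2 below on both days.

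Among 19 heme genes, 3 were at least 2-fold higher on each day than on day 0, and 4 were lower on day 1 and 6 on day 3. The shares were 15.8% and 21.1% on day 1, beside 13.5% and 15.3% of all genes, and 15.8% and 31.6% on day 3, beside 16.6% and 21.8%. The 4 were Flvcr2, Alas2 and, named after their values were seen, Fech and Slc46a1. Those higher on both days were Hmox1, Blvrb and, named after its values were seen, the heme transporter Slc48a1. Hmox1, the inducible heme oxygenase that frees iron from heme, had levels of 9.30, 86.5 and 81.2 P75 on days 0, 1 and 3, 9.31-fold and 8.74-fold higher than on day 0. Blvrb, a biliverdin reductase, had levels of 1.32, 9.19 and 7.83 P75, at log2 ratios of 2.80 and 2.57. Day 3 against day 1 gave log2 ratios of -0.09 for Hmox1 and -0.23 for Blvrb. Flvcr2, a membrane transporter of the heme gene list, had levels of 5.50, 0.868 and 0.324 P75 and was 17.0-fold lower on day 3 than on day 0. Alas2, the erythroid enzyme that starts heme synthesis and a member of the erythroid marker list, had levels of 0.176, 0.0299 and 0.0364 P75, at log2 ratios of -2.56 and -2.28.

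Of 20 genes of mitochondrial iron and iron-sulfur clusters with a value, 5 were at least 2-fold higher and 3 lower on day 1 than on day 0, and 3 were higher and 3 lower on day 3. The shares were 25% and 15% on day 1, beside 13.5% and 15.3% of all genes, and 15% in each direction on day 3, beside 16.6% and 21.8%. None reached 4-fold. Slc25a37, mitoferrin 1, which carries iron into mitochondria, had levels of 3.05, 4.95 and 3.90 P75 for its brightest probe, at log2 ratios of 0.70 and 0.35. Its probe 2 gave 0.83 and 1.37 and its probe 3 gave -0.40 and -0.92, so no direction is given. Genes past 2-fold, named after their values were seen, included Fdx2, Nfu1, Bola2 and Glrx3 on the high side and Fdxr, Cisd1 and Hscb on the low side on day 1. On day 3 they included Fdx2 and Nfu1 on the high side and Iscu, Slc25a28 and Isca1 on the low side.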

How the data were processed

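One sample per day of mPTECs was hybridised to Agilent 1-colour mouse arrays, labelled with Cy3 after linear amplification, per the labels. The deposited array files hold each spot's processed signal, an intensity after background subtraction and trend correction, and flags of other kind (0 or 1) that mark outliers, saturation and signal well above background, per the file headers. Per the file headers the software was Feature Extraction 10.5.1.1, and 9.1 per the submitters' processing notes. The value table the authors deposited is a ratio, the signal over the 75th percentile of the array: all 43379 values per array lay within 0.001 of it.

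Levels were computed from the array files as that ratio. Outlier spots (94, 102 and 85 in day order) were left out, and spots of a probe were averaged on the log2 scale. Probes were named by RefSeq accession (26888), symbol (5025) or synonym (832), and 8429 had no name. Where a gene had several probes, the one brightest on average stands for it. A probe was well above background where at least 0.5 of its kept spots were, a rule chosen among 3 after the values were seen. Where a gene was so on 1 array of a pair, its ratio is a bound against the lowest such level on the other. These levels were 0.0114, 0.0106 and 0.00669 P75 in day order. Each is the lowest of any probe and not a detection limit for every probe, so the bounds are not strict. Between spots of a probe the median standard deviation of log2 levels was 0.15, and between probes of a gene that of the log2 ratio was 0.34, 0.47 and 0.27 for day 1 against day 0, day 3 against day 0 and day 3 against day 1. Depth has no meaning for arrays; their number limits the precision.

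The members, gene lists and thresholds were chosen with earlier results of these data known. The wider genes named are 14 by role and 13 that were at least 4-fold apart from day 0 on day 1 or day 3, of which some are in both, 22 in all. One gene of the wider list is counted but not reported by name here. Alternatives covered scaling, background correction, the probe of a gene, the threshold and the filter on dim probes. The ratio step was tested on simulated arrays, copies of the day 0 array with added noise. In these, genes well above background and not dim were shifted 4-fold. The bounds and the dim genes were not covered by that test. Python 3.11.15, R 4.3.3 and limma 3.58.1 (normexp, offset 50) were used.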

Additional observations from a re-analysis of the deposited data

How the results depend on the processing

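No paired analysis was possible because each day has 1 sample. Of 246 alternative values for counts and medians of the 2 lists, 205 stayed within the spread or within 1.5 times the count, and 41 moved. The sign of a list median changed in 13 of 78 alternatives, all for medians no farther from 0 than 0.23, so no direction is drawn from them. Of 375 for single members, 323 stayed and 52 moved, and of 852 for the named genes of the wider list, 719 stayed, 131 moved and 2 changed sign from a ratio past 2-fold. Those 2 are log2 ratios of Cybrd1 before trend correction, 0.68 on day 3 against day 0 and 0.58 against day 1. The brightest probe is picked anew in each setting, so they may come from another Cybrd1 probe than the main ratios. In the main setting its probe 2 gave 0.84 and 0.76. Several settings could not move many of the single-gene ratios. For a bright gene with 1 probe, the authors' values, the mean of all probes and the filters on dim genes return the main ratio. The members were already named by the array's name column. The numbers that stayed are thus no measure of how firm the ratios are. Rules calling a probe above background by any spot, or over 0.5 of them, were added once the values were known. No list count or median moved, but no member's call could: only Tfrc, always above background, has several spots. With any spot, Erfe's bound was 5.86 against day 0 and 5.71 against day 1.

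Holding 12 reference genes level moved the median of all genes by -0.51 on day 1 and on day 3 against day 0, the spike-in controls by 0.15 and 0.48, median centring by 0.21 and 0.31, and quantile normalization by 0.12 and 0.17. With reference genes, the members at least 2-fold higher and lower than on day 0 were 0 and 2 on day 1 (median -0.47). On day 3 they were 1 and 5 (median -0.55). The wider list had 6 and 30 on day 1 (median -0.86) and 7 and 33 on day 3 (median -0.72). The median of all genes was then -0.62 on each day. Shares of all genes past 2-fold are not given for the alternative settings. Their counts are thus not read as results about a list. With spike-in controls the members' median was 0.43 on day 3 against day 0 and 0.14 against day 1, with 2 members higher than on day 1. The wider list then had 24 higher and 9 lower (median 0.26) on day 3 against day 0 and 3 lower (median 0.27) against day 1. With median centring the wider list had 8 lower on day 1, and 19 higher and 11 lower on day 3, against day 0. At 4-fold the members had 0 higher and 0 lower on day 1 and 1 higher on day 3 against day 0. The wider list at 4-fold had 5 and 5 on day 1 and 6 and 7 on day 3 against day 0. On day 3 against day 1 it had 1 and 0. Shares of all genes at 4-fold were 3.38% higher and 5.15% lower on day 1, and 5.35% and 8% on day 3. They were 1.62% and 1.32% on day 3 against day 1. With normexp 1 member was at least 2-fold higher on day 1 against day 0, and 1 gene of the wider list lower on day 3 against day 1. Keeping only genes well above background on both arrays removed Erfe, which left a members' median of -0.61 on day 3 against day 0 and 0 members higher on day 3 against day 1. The signal before trend correction, and the mean of all probes, each gave 2 members higher and 3 wider genes lower on day 3 against day 1. Naming genes by the array's name column alone also gave 3 such wider genes. The cause of these moves was not tested beyond what each setting removes or shifts. The 3 arrays are the limit on all of this: spread between animals or cultures was not measured.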

Other observations

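The genes on either side of Erfe were looked up after its values were seen. Probes of Ilkap and Klhl30 lie 10.7 and 11.7 kb from the Erfe probe on the array's mm9 positions. Klhl30 had levels of 0.186, 0.230 and 0.604 P75 on days 0, 1 and 3, a log2 ratio of 1.70 on day 3 against day 0 and 1.39 against day 1. Ilkap had levels of 0.532, 0.711 and 0.689 P75, within 2-fold throughout. Tmprss6, a protease that limits hepcidin, and Hjv, a BMP co-receptor for hepcidin, were with Hp, Cp and Cpox the genes of the wider list at least 2-fold higher on day 3 than on day 1. The log2 ratio was 1.37 for Tmprss6. The day 1 signal of Hjv was too dim to be called above background, so its log2 ratio of 1.61 is a bound like that of Erfe.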
